A study of Mus musculus with 12 samples.

Results

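The sg2 line is a culture of 6DT1 cells in which the Resf1 gene was edited with the second of 3 CRISPR guides, and it was compared here with the control line. Its members are the 3 libraries labelled sg2, which were set against the 3 libraries labelled sgControl, 6 of the 12 libraries of the series. 6DT1 is a mouse mammary cancer cell line that came from a tumor driven by a Myc transgene. The control libraries are labelled wild type with the treatment "sgScranble control", and the sg2 libraries Resf1 KO with the treatment sgResf1 CRISPR KO. The labels give medium with puromycin for every line, under a treatment text that describes shRNA knockdown of the human gene and so does not match CRISPR lines, whereas the study's methods select the edited cells by sorting for GFP. The study's methods place the guides in exon 3, the largest exon, in the LentiCRISPRV2-GFP vector, and describe the edited lines as clones grown from single sorted cells. If each line here is 1 clone, the guide and the clone that carries it cannot be told apart, and the 3 libraries of a line measure the spread between dishes and library preparations only. The sg1 and sg3 lines, also labelled Resf1 KO, were used for comparison. All genes of the deposited table, 982, were examined, and the gene groups below were chosen with earlier results of these data known.

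RESF1, the retroelement silencing factor, is a nuclear protein known for partnering with the histone methyltransferase SETDB1 in the silencing of endogenous retroviruses. Cas9 cuts DNA where its guide pairs, and error-prone repair of the cut can shift the reading frame of the targeted gene. SETDB1 places a repressive methyl mark on histones.

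Values are estimated read counts divided by 1 size factor per library by the authors, called normalized values below. Fold changes are differences of log2(normalized value + 1) with their standard error (SE), and p-values come from limma, a linear model fitted across all genes and libraries, with Benjamini-Hochberg adjustment over the 982 genes. A gene was called higher or lower where the adjusted p was at most 0.05. The table sums were 2069298 to 2299634 in sgControl and 2409352 to 2640989 in sg2; they cover only these genes and are not the sequencing depth. One feature with no symbol in the annotation, ENSMUSG00000119584, made up 16.1% to 24.1% of those sums in sgControl and 26.0% to 32.9% in sg2. No 2 replicates were duplicates, and the median standard deviation between replicates was 0.09 on the log2 scale in both lines (n = 3 each). The level of Resf1 itself was not analysed here, which leaves the KO label without a check in these data. Of the 3 markers of luminal mammary epithelium in the table, Krt8 and Krt18 were high in both lines, between 5630.05 and 6418 normalized values in all 6 libraries. Krt19 was less abundant, at 511, 423 and 551 in the control and 419, 421 and 365 in sg2. It was called lower (log2 fold change -0.29, limma adjusted p = 0.0483), a call lost in several alternatives given below.

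The sg2 line differed from the control line in 586 of 982 genes, 59.7% of those tested, with 297 higher (30.2%) and 289 lower (29.4%). The table may hold genes selected by the authors, so these shares do not apply to the whole transcriptome. Most differences were small: the median size among called genes was 0.42 on the log2 scale, and 179 of the 586 lay under 1.2-fold. Past 2-fold there were 58 higher and 73 lower genes, and past 4-fold 12 higher and 41 lower genes, so that the largest differences were more often losses. In 558 of the called genes the 3 sg2 libraries lay entirely above or entirely below the 3 control libraries, and over all genes 68.0% separated in this way. Rescaling each library to its table total, which ENSMUSG00000119584 moves, changed the split from 50.7% higher among the calls to 21.9% higher, and leaving that feature out of the total gave 45.4%.

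**Figure D1:**
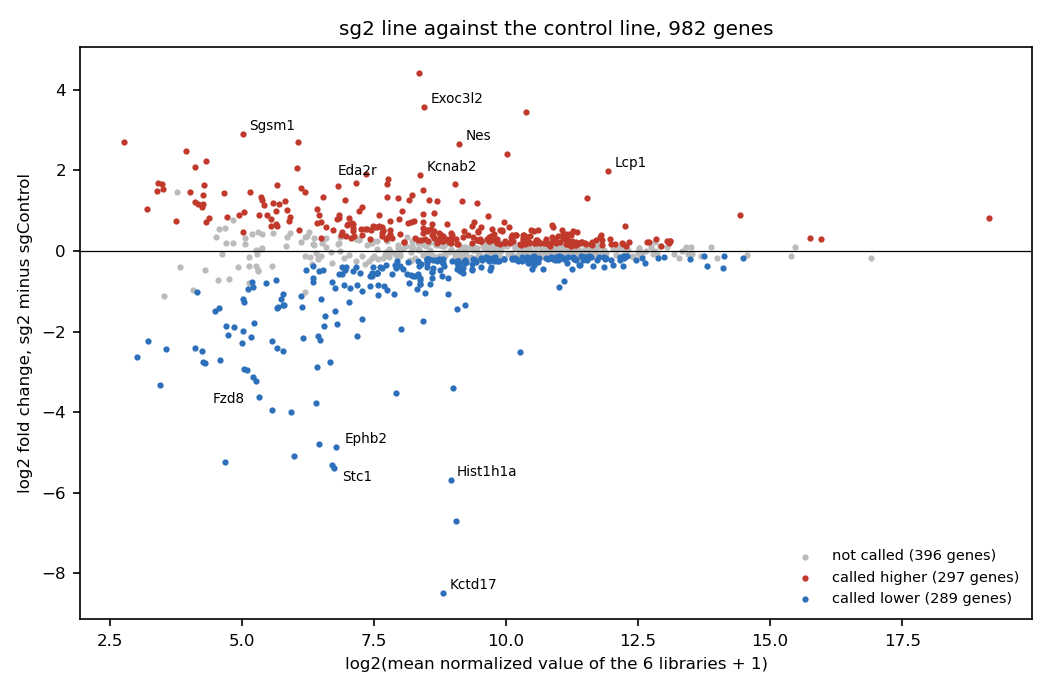
Each point is 1 of the 982 genes, placed by its mean level over the 6 libraries (horizontal axis, log2 of normalized value + 1) and by its log2 fold change in the sg2 line against the control line (vertical axis). Red and blue points are genes called higher (297) and lower (289), and the falls reach further from 0 than the rises, down to -8.49 for Kctd17.

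The gene with the largest fitted fall was Kctd17, an adaptor of cullin-3 ubiquitin ligases. It stood at 866, 879 and 938 normalized values in the control libraries and at 1.04, 2.99 and 0.871 in the sg2 libraries. The sg2 values correspond to 3 reads or fewer in each library, so the fold is a lower bound: Kctd17 was at least 307-fold lower (limma adjusted p = 3.52e-15). Mvb12b, a subunit of the ESCRT-I complex that sorts ubiquitinated membrane proteins, was also at that floor in sg2, with 3.13, 2.99 and 1.74 against 125, 129 and 112 in the control, which made it at least 41.8-fold lower (limma adjusted p = 5.54e-14).

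Of the 12 named falls 4 encode proteins of the cell surface or secreted signals. Ephb2, a receptor tyrosine kinase for ephrin-B ligands, had 199, 239 and 198 normalized values in the control and 6.27, 4.98 and 7.84 in sg2. All 3 sg2 libraries were far below the lowest control library (log2 fold change -4.87, SE 0.14, limma adjusted p = 1.04e-14). Stc1, which encodes the secreted glycoprotein stanniocalcin 1, fell from 194, 161 and 272 to 4.18, 3.98 and 3.49 (log2 fold change -5.39, SE 0.19, limma adjusted p = 1.11e-13). Dsc2, a desmosomal cadherin that joins epithelial cells, fell from 199, 197 and 212 to 2.09, 6.97 and 4.36 (log2 fold change -5.32, SE 0.29, limma adjusted p = 7.39e-11). The groups did not overlap for either gene. Fzd8, a Frizzled receptor for Wnt ligands, had 75.7, 62.6 and 79.1 in the control and 7.31, 2.99 and 5.23 in sg2 (log2 fold change -3.63, SE 0.30, limma adjusted p = 2.09e-08).

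The remaining named falls were of other kinds. Hist1h1a, the linker histone H1.1, had 940.3, 964 and 1000.0 normalized values in the control and 19.9, 11.9 and 23.5 in sg2, and all 3 sg2 libraries were below the control (log2 fold change -5.69, SE 0.17, limma adjusted p = 1.99e-14). Hist1h1a was therefore among the well-expressed control genes that nearly disappeared in the sg2 line. Chchd10, a protein of the mitochondrial intermembrane space, fell from 167, 165 and 174 to 4.18, 5.97 and 5.23 (log2 fold change -4.80, limma adjusted p = 2.64e-13). Dennd2a, a DENN-domain exchange factor for Rab GTPases, had a log2 fold change of -3.94, and Osbpl7, an oxysterol-binding protein family member, one of -3.77 (limma adjusted p = 9.18e-10 and 1.36e-09). The X-linked 3830417A13Rik fell by 3.99 (limma adjusted p = 6.52e-09). Gm43305, a predicted gene, had 1111, 923 and 1128 in the control and a wide spread of 3.17, 10.6 and 20.5 in sg2, with no overlap (log2 fold change -6.70, SE 0.59, limma adjusted p = 4.51e-06).

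Among protein-coding genes the largest rise was that of Exoc3l2, a relative of the exocyst subunit EXOC3 that tethers secretory vesicles. It rose from 52.1, 46.3 and 62 normalized values to 597, 692 and 644, with every sg2 library above every control library (log2 fold change 3.57, SE 0.24, limma adjusted p = 8.53e-10). Nes, the intermediate filament protein nestin of progenitor cells, rose from 151, 161 and 142 to 935, 981 and 959 (log2 fold change 2.65, SE 0.11, limma adjusted p = 7.25e-13). Lcp1, the actin-bundling protein L-plastin, was the most abundant of the named rises, at 1643, 1452 and 1683 in the control and 6473, 6043 and 6235 in sg2 (log2 fold change 1.97, SE 0.06, limma adjusted p = 2.38e-14). The spread within each line was small beside these differences. Kcnab2, the beta subunit of voltage-gated potassium channels, rose from 151, 135 and 135 to 531, 543 and 495 (log2 fold change 1.89, limma adjusted p = 8.70e-11). Sgsm1, a modulator of small G proteins, was low in the control at 5.89, 3.63 and 12.4 and reached 55.4, 45.8 and 65.4 in sg2 (log2 fold change 2.89, SE 0.42, limma adjusted p = 2.14e-05). Eda2r, a receptor of the tumor necrosis factor receptor family, completed the 6 protein-coding rises and is described with the p53 targets.

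The other 6 of the 12 named rises were predicted genes, a pseudogene or features with no symbol in the annotation. Gm28187 had the largest rise of all, from 34.4, 19 and 33.4 to 677, 493 and 711 normalized values (log2 fold change 4.42, SE 0.21, limma adjusted p = 6.72e-11). ENSMUSG00000121069 rose from 240.3, 179.9 and 249 to 2268, 2211 and 2853 (log2 fold change 3.45, limma adjusted p = 5.51e-14), and Gm20186 from 320.3, 302 and 375 to 1733, 1706 and 1813 (log2 fold change 2.40, limma adjusted p = 1.57e-14). AC120164.1, the pseudogene Gm6201 and ENSMUSG00000121137 rose by 2.71, 2.07 and 1.92 on the log2 scale. Reads of such features can be shared with near-identical copies, and how the authors counted them is not given in the sources used here. Of the 10 features without a symbol, 7 were called higher and the rest were not called, while the 70 noncoding genes and pseudogenes with a symbol split into 25 higher and 23 lower and the 902 protein-coding genes into 265 higher and 266 lower.

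**Figure D2:**
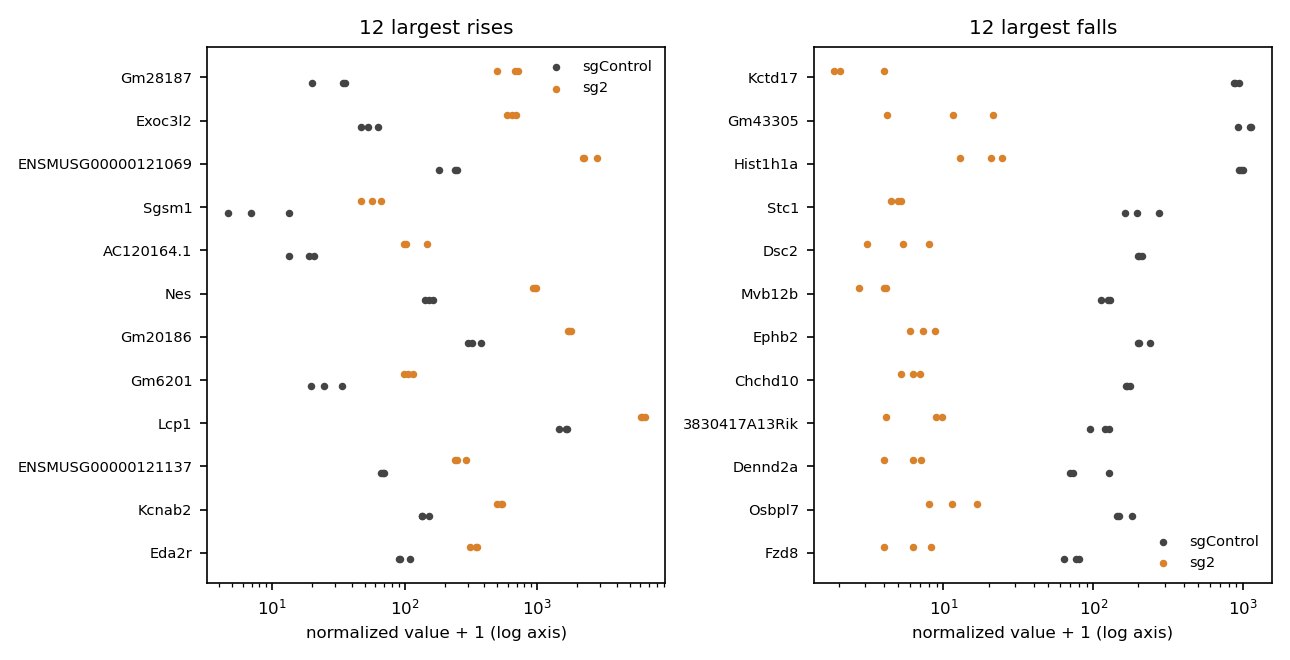
Normalized value + 1 (log axis) of the 12 largest rises (left) and 12 largest falls (right) in each of the 3 control libraries (dark) and 3 sg2 libraries (orange). The lines do not overlap in any of the 24 genes, which the naming rule required, and the sg2 libraries of Kctd17 and Mvb12b lie at the floor of detection.

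The counts of called members in the gene lists that follow are read against the shares over the whole table, 59.7% called, 30.2% higher and 29.4% lower, and no list was tested against them. Genes of the unfolded protein response, by which cells adjust the folding capacity of the endoplasmic reticulum (ER), were mostly lower in the sg2 line. Of 15 members of the list in the table, which also holds targets of the amino acid sensor pathway through ATF4, 10 were lower (66.7%, beside 29.4% over the table) and 2 higher, with a median log2 fold change of -0.24 beside -0.02 over the whole table. The chaperone Hspa5 (BiP) had 15603, 16557 and 16286 normalized values in the control and 11901, 12042 and 13204 in sg2. Calr, the lectin chaperone calreticulin, had 19957, 21449.9 and 19335 in the control and 14579, 15798 and 15057 in sg2. Both were lower in every sg2 library than in any control library, with log2 fold changes of -0.38 and -0.42 (limma adjusted p = 1.96e-05 and 1.88e-05). Sdf2l1, an ER co-factor of BiP, had the lowest log2 fold change of the list at -0.46 (limma adjusted p = 1.83e-04), and the remaining lower members were the chaperone Hyou1 (-0.38), the disulfide isomerases Pdia6 (-0.35), Pdia4 (-0.31) and Pdia3 (-0.19), the ER-resident factor Manf (-0.34), the transcription factor Xbp1 (-0.24) and Aldh18a1, an enzyme of proline synthesis (-0.22). Of the sensors that start the response, Atf6 rose by 0.18 and Ern1 was not called (0.15). Vldlr, a lipoprotein receptor on the ATF4 side of the list, moved the other way, from 352, 283 and 400.4 to 796, 779.7 and 840.1 (log2 fold change 1.23, limma adjusted p = 1.08e-08). The falls were small: of the 10, only Calr passed limma's test against a change of 1.2-fold. Xbp1 lost its call without sg2 replicate 3, although the list again had 10 lower members in that fit (median -0.27).

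Subunits of oxidative phosphorylation and mitochondrial ribosomal proteins were lower by a small and even amount. Of 12 list members 11 were lower (91.7%, beside 29.4% over the table) and the other, Ndufc1, was not called; they lay between -0.29 and -0.13 on the log2 scale with a median of -0.19. The largest fall was in Atp5g3, a subunit of the membrane ring of ATP synthase, with 2471, 2601 and 2462 normalized values in the control and 2038, 2113 and 2014 in sg2 (log2 fold change -0.29, SE 0.05, limma adjusted p = 2.37e-04). Ndufb8 of complex I fell from 1344, 1274 and 1286 to 1114, 1086 and 1072 (log2 fold change -0.25, limma adjusted p = 0.00112). The lines did not overlap for either gene. Leaving out sg2 replicate 3, or removing a trend with transcript length and GC content, left 7 of the 12 called lower, while the median stayed at -0.18 and -0.20. Against a change of 1.2-fold limma called 0 of the 12, and 0 had an unadjusted p under 0.05 in that test.

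Genes of protein synthesis had medians slightly below 0, with calls that depended on single libraries and on the scaling. Among 17 cytosolic ribosomal proteins and translation factors 10 were lower (58.8%, beside 29.4% over the table) and 1 higher (median log2 fold change -0.14), among them Rpl13 (-0.21), Rps14 (-0.21) and Rps10 (-0.21) of the 2 ribosomal subunits. The count of lower members was 3 without sg2 replicate 3, 5 without sgControl replicate 1 and 3 after removal of the length and GC trend. Eif5a2, an isoform of the translation factor eIF5A, had the largest difference of this list (19.6, 19 and 17.2 against 5.22, 2.99 and 0.871, log2 fold change -2.45, limma adjusted p = 6.81e-04), and Eif3j1, a subunit of the initiation factor eIF3, was the member that rose (0.62, limma adjusted p = 2.62e-04). Of 16 nucleolar factors of ribosome assembly 6 were lower and the rest not called (median -0.15), which put 37.5% lower and called, beside 29.4% lower and 59.7% called over the table. With the replicate number as a block 12 of the 16 were lower, and without sgControl replicate 1 or without sg2 replicate 3 only 1 was. Rescaling by the median of ratios gave 14 lower, and scaling to the table total 16. Of 11 MYC targets in polyamine, folate and nucleotide synthesis and cell growth 3 were lower, with a median of -0.13 (27.3%, near the 29.4% of the table, so the count is no result about these genes). The count was 7 with the block, 1 without sg2 replicate 3, 7 by the median of ratios and 10 when scaled to the table total.

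Targets of the tumor suppressor p53 and apoptosis genes were mostly higher, 7 of 9 (77.8%, beside 30.2% over the table) with 1 lower (median log2 fold change 0.38). Eda2r, a p53 target that encodes the receptor of ectodysplasin A2, rose from 108, 89.8 and 91.5 normalized values to 343, 313 and 348, with no overlap (log2 fold change 1.79, SE 0.12, limma adjusted p = 9.18e-10). The p53 targets Ccng1 (cyclin G1) and Mdm2, the ubiquitin ligase that degrades p53, rose by 0.38 and 0.23 (limma adjusted p = 1.89e-04 and 4.56e-04). In each library Mdm2 was abundant, at 2466, 2599 and 2447 in the control and 2914, 2959 and 2936 in sg2. Neither gene kept its call when the libraries were scaled to the table total, which shifted the median of all genes by -0.20 on the log2 scale, nor did either pass the test against 1.2-fold; 4 of the 9 members were higher under each of these settings, Eda2r, Casp1, Casp12 and Zmat3. Zmat3, an RNA-binding p53 target, rose by 0.50, and Polk, a DNA polymerase that bypasses lesions, by 0.27. Casp1 and Casp12, caspases of inflammation that both lie on chromosome 9, rose by 1.26 and 1.33 (limma adjusted p = 9.22e-08 and 7.87e-06). Casp1 had 201, 203 and 253 in the control and 484, 486 and 608 in sg2. The member that fell was the stress-induced Gadd45b (-0.56, limma adjusted p = 0.0082), which was not called with the trend in transcript length and GC content removed (-0.40, limma adjusted p = 0.0561).

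**Figure D3:**
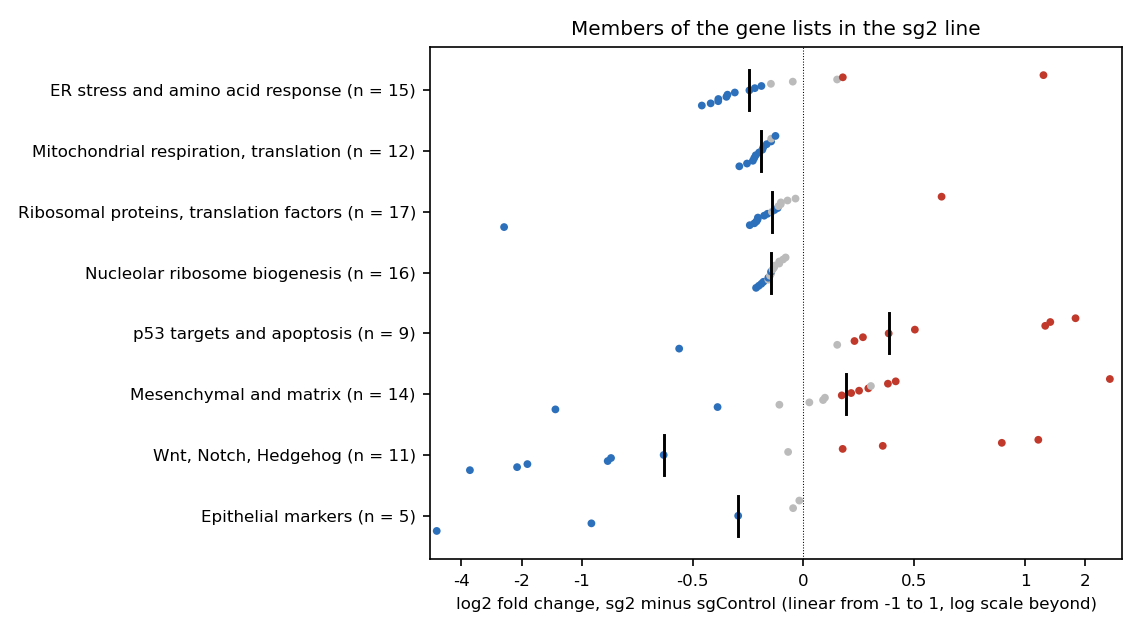
Each point is a gene of the list named at the left, with its log2 fold change in the sg2 line against the control line (linear between -1 and 1, logarithmic beyond); red and blue are genes called higher and lower, grey not called, and the black bar is the list's median. The lists of ER, mitochondrial, translation and nucleolar genes sit just below 0, the p53 list lies mostly above 0, and the Wnt, Notch and Hedgehog list spreads from -3.63 to 1.16.

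Receptors and regulators of the Wnt, Notch and Hedgehog pathways changed in both directions. Of 11 list members 6 were lower and 4 higher (54.5% and 36.4%, beside 29.4% and 30.2% over the table), with a median log2 fold change of -0.63. On the Wnt side the Frizzled receptors Fzd8, Fzd7 and Fzd6 had log2 fold changes of -3.63, -0.88 and -0.63, and all 3 were called lower, Fzd7 not without sgControl replicate 1. The Wnt co-receptor Lrp6 rose by 0.18, and Notum, the secreted enzyme that inactivates Wnt ligands, rose from 37.2, 32.1 and 24 to 77, 79.8 and 55.3 (log2 fold change 1.16, limma adjusted p = 3.88e-04). On the Hedgehog side both co-receptors in the table fell. Boc fell from 122, 161 and 136 to 35.5, 25.9 and 34 (log2 fold change -2.11, SE 0.15, limma adjusted p = 3.24e-09) and Gas1 from 157, 136 and 147 to 36.5, 41.8 and 40.0 (log2 fold change -1.87, SE 0.17, limma adjusted p = 8.72e-08). Sufu, the pathway's intracellular inhibitor, was not called (-0.07). On the Notch side the receptors Notch4 (0.89) and Notch1 (0.36) rose and Dtx4, a Deltex ubiquitin ligase, fell (-0.87). With libraries scaled to the table total, Notum and Notch4 were the 2 higher members that kept a call.

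Among growth factors and receptor kinases 4 of 9 members were lower and 2 higher (44.4% and 22.2%, beside 29.4% and 30.2% over the table), or 3 higher with the replicate block. Ddr2, a receptor tyrosine kinase for fibrillar collagen, rose from 1697, 1663 and 1725 normalized values to 4114, 4250.2 and 4207, with a very small spread in each line (log2 fold change 1.31, SE 0.06, limma adjusted p = 2.23e-12). Mertk, a TAM family receptor of engulfing cells, rose by 0.45, and the family member Tyro3 was not called (-0.17). Bmp7, a secreted ligand of the TGF-beta superfamily, fell from 502, 502 and 428 to 228, 236 and 229 (log2 fold change -1.04, limma adjusted p = 2.09e-08). Vegfa, the vascular endothelial growth factor, fell from 372, 332 and 426 to 301, 216 and 218 (log2 fold change -0.63, limma adjusted p = 4.14e-04). It is also a member of the glycolysis and hypoxia list, where 2 of 6 genes were lower (33.3%, near the share over the table) and the rest not called. The other was Slc16a3, the lactate exporter MCT4, at 435, 418 and 472 in the control and 35.6, 52.9 and 27.1 in sg2 (log2 fold change -3.53, SE 0.23, limma adjusted p = 7.45e-10). The hypoxia factor Epas1 (-0.09) and the glycolytic enzyme Pfkm (0.04) were not called. With the trend in transcript length and GC content removed the list had 2 higher and 2 lower genes, Pfkm and the oxygen sensor Egln3 being the higher ones (log2 fold changes 0.16 and 0.21, limma adjusted p = 0.0367 and 0.00131), and with the replicate block Egln3 was higher (0.13, limma adjusted p = 0.0359). Scaled to the table total, Epas1 was called lower (-0.29, limma adjusted p = 0.0231).

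Of 5 epithelial markers 3 were lower and the others not called, and of 14 mesenchymal and extracellular matrix genes 7 were higher and 2 lower, or 10 higher with the replicate block (medians -0.29 and 0.19). Beside Dsc2, the tight junction protein Cgn (cingulin) was lower at 25.1, 23.9 and 19.2 against 39.3, 50.8 and 44.8 (log2 fold change -0.96, limma adjusted p = 0.00385), a call lost under quantile normalization. The luminal keratins Krt8 (-0.05) and Krt18 (-0.02), the most abundant of the list, were not called. With the trend in transcript length and GC content removed both were called higher, at 0.11 and 0.14 (limma adjusted p = 0.0289 and 0.0037), and scaled to the table total both were called lower, at -0.25 and -0.22 (limma adjusted p = 0.0122 and 0.0268). Krt19 (-0.29) lost its call with the replicate block (limma adjusted p = 0.0551), which left 2 epithelial markers lower. Most fits that left out 1 control or sg2 library lost the call of Krt19 too, as without sg2 replicate 3 (-0.23, limma adjusted p = 0.176). With the trend in transcript length and GC content removed Krt19 was at -0.13 (limma adjusted p = 0.299). On the mesenchymal side Nes rose most, and the matrix protease Mmp3 (0.42), the collagen chain Col6a3 (0.38), the fibronectin receptor subunit Itgav (0.29), the matrix protein Efemp2 (0.25), the transcriptional repressor Zeb1 (0.22) and the TGF-beta receptor Tgfbr2 (0.17) rose by small amounts, with Zeb1 not called on leaving out sg2 replicate 3 or sgControl replicate 1. Fbln1, a fibulin of the matrix, fell from 83.5, 75.3 and 78.2 to 26.1, 33.9 and 31.4 (log2 fold change -1.35, limma adjusted p = 2.90e-04) and fibronectin itself, Fn1, was not called (-0.11). Scaled to the table total, Nes and Mmp3 were the 2 mesenchymal genes still higher.

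Membrane transporters were the largest list, 35 genes with a median log2 fold change of -0.03. Of these transporters 12 were higher and 14 lower (34.3% and 40.0%, beside 30.2% and 29.4% over the table), or 7 and 17 when scaled to the table total. Beside Slc16a3 and Kcnab2 they included Slc9a3r2, a scaffold of ion exchangers (-1.42, limma adjusted p = 1.65e-05), and the serotonin transporter Slc6a4, which was low and overlapped between the lines (1.97, 12.7 and 1.91 in the control and 14.6, 17.9 and 7.84 in sg2, limma adjusted p = 0.0481). The call of Slc6a4 was lost in 4 of the 6 fits that left out 1 control or sg2 library (limma adjusted p = 0.104 to 0.174). Zinc finger factors counted 4 higher and 7 lower of 12 (33.3% and 58.3%, beside 30.2% and 29.4% over the table). The counts were 1 and 8 when scaled to the table total and 0 and 5 in the test against 1.2-fold. The largest change was that of Zfp459, at a mean of 18.8 in the control and 1.04, 0.996 and 0.871 in sg2, which made it at least 6.47-fold lower. Of 6 histone genes 3 were lower and 1 higher: beside Hist1h1a, the macroH2A2 gene H2afy2 fell by 2.48 on the log2 scale and Hist1h2bp by 0.33, a call lost without sg2 replicate 3, and Hist2h3c1 rose by 0.59. Among 9 interferon and antiviral genes 2 were lower and 1 higher (22.2% and 11.1%, both below the 29.4% and 30.2% of the table). The largest change was the fall of Trim30a (-2.41, limma adjusted p = 2.11e-07). The rise lost its call without sgControl replicate 1 and without sg2 replicate 3, and 2 genes were higher with the replicate block. Of 10 cytokine and cytokine receptor genes 4 were higher and 1 lower (40.0% and 10.0%, beside 30.2% and 29.4% over the table), led by the decoy death receptor Tnfrsf23 (0.61, limma adjusted p = 8.42e-08). Of these, 5 were higher with the replicate block and 2 without sgControl replicate 1, and 2 were higher and 2 lower when scaled to the table total. Of 11 actin and YAP-related genes 3 were higher (27.3%, near the 30.2% of the table, so the count is no result about these genes), 5 with the replicate block and 1 without sg2 replicate 3. The largest rise of this list was that of the collagen-binding integrin subunit Itga2 (0.50, limma adjusted p = 6.36e-04). Of 4 cell cycle genes 3 were higher, and 2 of these, Ccng1 and Mdm2, are the p53 targets named above. With the replicate block 3 were higher and 1 lower, and scaled to the table total 0 were higher and 1 lower. Of 4 sterol and fatty acid synthesis genes 2 were lower, Mvd and Acat2, both overlapped the control libraries, and neither was called without sgControl replicate 1. The heterochromatin list had 1 gene in the table, Cbx5, the heterochromatin protein HP1 alpha, at 10265, 10269 and 10265 in the control and 9904, 10555 and 10218 in sg2, which was not called (log2 fold change -0.01, SE 0.04). Cbx5 was called lower with the trend in transcript length and GC content removed (-0.26, limma adjusted p = 9.89e-05) and with libraries scaled to the table total (-0.21, limma adjusted p = 0.0393).

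Markers of other cell types were sparse in the table. Of the markers of T and B lymphocytes, endothelium, fibroblasts and basal mammary epithelium 0 were in the table, and of 10 macrophage markers 1 was, Cd68, at 147, 102 and 154 in the control and 169, 159 and 154 in sg2 (not called). The adipocyte factor Pparg was higher (0.98) and the myelin gene Mbp lower (-1.61), each the only member of its list in the table.

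The sg2 line was also set against the mean of sg1 and sg3, a contrast without control libraries but with the same sg2 libraries as above. A gene can pass this contrast through 1 of those lines alone. It called 521 genes, 53.1% of those tested, with 214 higher (21.8%) and 307 lower (31.3%) in sg2. In 197 genes the 3 sg2 libraries lay entirely outside the 6 libraries of the other edited lines, and 190 of these were called. Genes picked for extreme sg2 values against the control are favored to be extreme against the other lines too, so the share over all genes is no fair baseline for them. Of the 12 largest falls against the control, 9 had all sg2 libraries below those of both other lines. This held for 36 of the 73 genes lower by more than 2-fold and 11.5% of all genes. The other 3 falls did not: Dsc2 was lower in sg1, and Fzd8 and Gm43305 were lower in sg3, by the group means. Of the 12 largest rises 7 had all sg2 libraries above those of both other lines, as had 13 of the 58 genes higher by more than 2-fold and 8.55% of all genes. Nes, for example, was higher in sg1. Of the 131 genes changed more than 2-fold against the control, 87 were called against the mean of sg1 and sg3, but in 79 of the 131 the sg2 libraries overlapped the range of the other 6 libraries.

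Ephb2 separated sg2 from the other edited lines without overlap. The sg1 libraries held 727, 756 and 735 normalized values and the sg3 libraries 406, 486 and 464, above the control, and the sg2 libraries 6.27, 4.98 and 7.84, below it. The difference of sg2 from the mean of sg1 and sg3 was -6.31 on the log2 scale (SE 0.12, limma adjusted p = 1.77e-17). Mvb12b followed the same order, with 252, 259 and 269 in sg1 and 236, 212 and 199.8 in sg3 (difference -6.06, limma adjusted p = 5.93e-16). Kctd17 was near its control level in sg1 at 895, 935 and 785 and intermediate in sg3 at 347, 430.3 and 391 (difference -7.87, limma adjusted p = 5.93e-16). Stc1 was at 267, 281 and 327 in sg1 and 40.7, 40.4 and 42.9 in sg3 (difference -4.51, limma adjusted p = 1.77e-13). Hoxb3os, a transcript annotated opposite to the homeobox gene Hoxb3, was at 0.00496, 1.21 and 0.0682 in sg2, against 44, 50.2 and 53.1 in the control, 110.0, 46.6 and 64.7 in sg1 and 45.4, 42.4 and 39.4 in sg3. It was at least 16.9-fold lower in sg2 than in the control, and reads of the opposite strand could not be set apart because the strand setting of the count is not given in the sources used here.

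Of the genes by which sg2 lay highest above the mean of sg1 and sg3, Exoc3l2 led. It was at 3.19, 6.79 and 4.42 in sg1 and 6.98, 8.66 and 8.21 in sg3, below the control, and at 597, 692 and 644 in sg2 (difference 6.51, SE 0.20, limma adjusted p = 2.32e-14). Samsn1, a signaling adaptor of lymphocytes and other cells, had 160.1, 151 and 189.7 in the control, 401, 341 and 476 in sg2, 22.3, 22.3 and 42 in sg1 and 2.33, 3.85 and 4.56 in sg3 (difference 5.15, limma adjusted p = 1.25e-12). The sg2 line was therefore highest and the other edited lines lowest for both genes. Pros1, which encodes protein S, an anticoagulant cofactor and a ligand of TAM receptors such as MERTK, rose in sg2 from 156, 117 and 153 to 378, 343 and 341 (log2 fold change against the control 1.32, limma adjusted p = 6.37e-06). In sg1 Pros1 was at 6.38, 5.82 and 5.52 and in sg3 at 94.3, 113 and 142 (difference 3.65, limma adjusted p = 7.61e-13). Syce2, a protein of the meiotic synaptonemal complex, entered this set with low values in the other edited lines. Syce2 was not called against the control (82.5, 74.4 and 93.4 against 106, 88.6 and 107), was at a mean of 49.7 in sg1 and at 8.15, 3.85 and 7.3 in sg3, and lay 2.41 on the log2 scale above the mean of these lines (limma adjusted p = 1.40e-08).

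**Figure D4:**
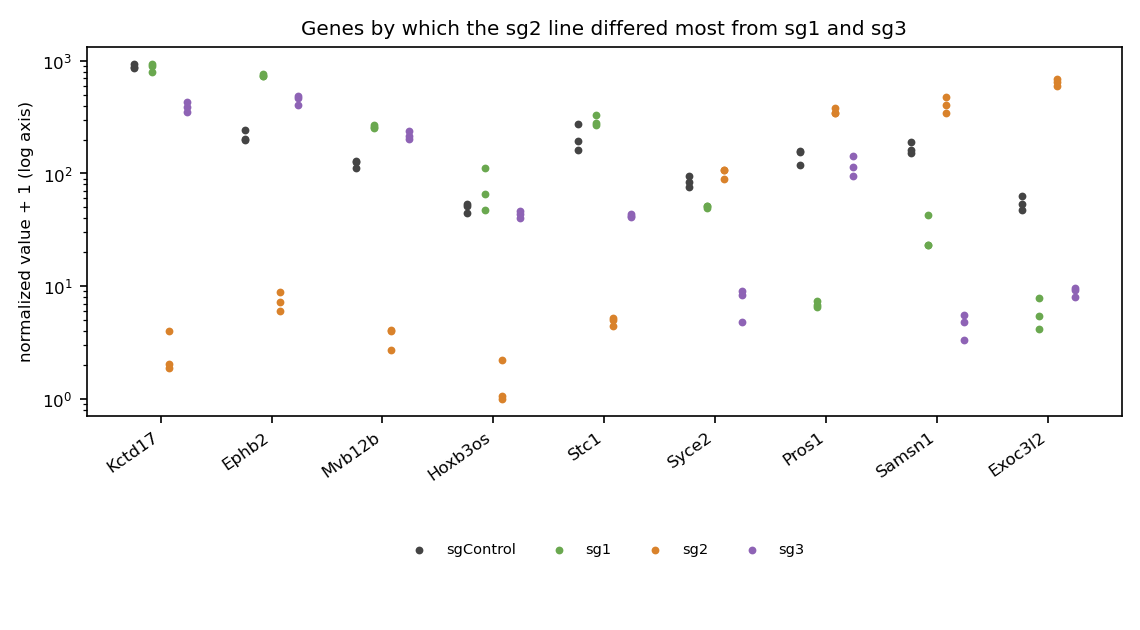
Normalized value + 1 (log axis) in all 12 libraries for the 5 genes by which the sg2 line lay lowest and 4 of those by which it lay highest against the mean of sg1 and sg3, with the 4 lines in different colors and 1 point per library. The sg2 points (orange) lie apart from all sg1 (green) and sg3 (purple) points in every gene, which the naming rule required, and Exoc3l2 and Ephb2 differ from the control (dark) in opposite directions in sg2 and in the other edited lines.

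The edited lines, which share the 3 control libraries, also differed from one another in other genes named above. Nes rose in sg2, was at 2344, 2454 and 2082 in sg1 and only at 5.82, 5.78 and 4.56 in sg3, with log2 fold changes against the control of 2.65, 3.91 and -4.58. Dsc2 was at 2.13, 0.97 and 1.1 in sg1 and 529.6, 533 and 604 in sg3, so sg1 and sg2 were both near the floor and sg3 above the control. Fbln1 was at 375, 435 and 477 in sg1 and 3.49, 0.963 and 2.74 in sg3, with sg2 between them. Lcp1 was at 5046, 4792 and 4744 in sg1 and 1444, 1562 and 1366 in sg3, where its log2 fold changes were 1.61 and -0.13. By contrast ENSMUSG00000121069 and Gm20186 had nearly equal log2 fold changes in sg2, sg1 and sg3, of 3.45, 3.41 and 3.45 for the first and of 2.40, 2.40 and 2.24 for Gm20186. Slc16a3 also fell by similar amounts, with log2 fold changes of -3.53 in sg2, -3.61 in sg1 and -3.28 in sg3.

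The calls were also counted by chromosome, as a description. On chromosome 1, 28 of 53 genes were higher (52.8%) and 11 lower, and on chromosome 9, 26 of 54 were higher (48.1%) and 16 lower, beside 30.2% higher over the table. Chromosome 10 lay the other way, with 9 of 42 genes higher and 19 lower (45.2%, beside 29.4%). Chromosome 15 held the most genes of the table, 94, and few of these were called against the control, 10 higher and 19 lower, with a median log2 fold change of 0.03. Against the mean of sg1 and sg3, 79 of the 94 were called lower in sg2 and 5 higher, beside 31.3% lower and 21.8% higher over the table, with a median log2 difference of -0.28. All sg2 libraries lay below those of sg1 in 85 of the 94 genes, beside 43.6% of all genes, and below those of sg3 in 12, beside 17.3%. Kctd17, Krt8 and Cbx5 lie on this chromosome. For Krt8 the sg1 libraries held 13254, 14087 and 12659.7 normalized values and the sg3 libraries 5011, 5613 and 5439, with sg1 above and sg3 below the sg2 libraries. Over the whole table the median log2 fold change was -0.02 in sg2, 0.20 in sg1 and -0.03 in sg3.

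**Figure D5:**
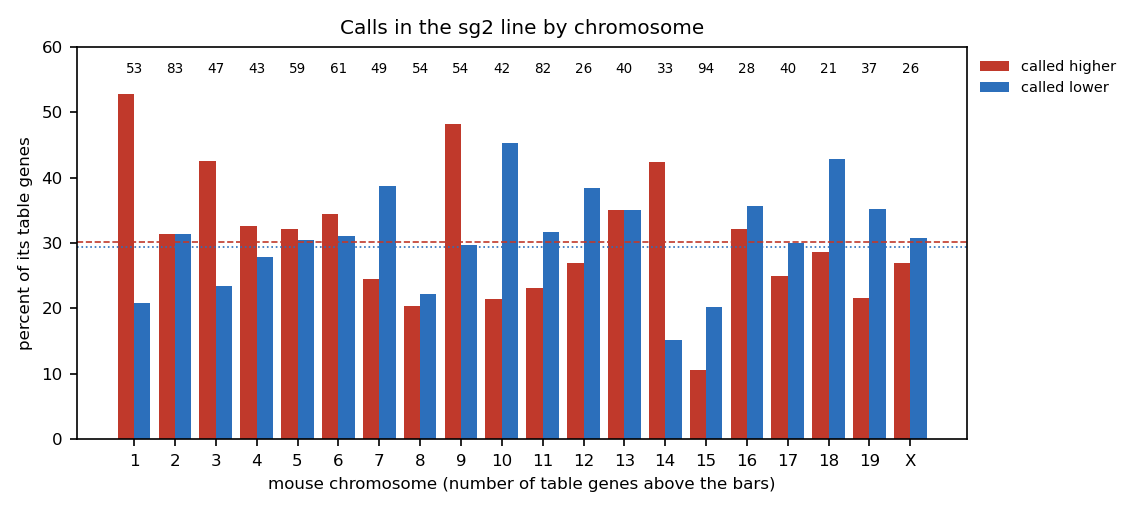
Share of the table's genes on each mouse chromosome that were called higher (red) and lower (blue) in the sg2 line against the control line, with the number of genes above the bars and the shares over the whole table as dashed (higher, 30.2%) and dotted (lower, 29.4%) lines. Chromosome 1 has the largest share of higher genes at 52.8% and chromosome 10 the largest share of lower genes at 45.2%.

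The genes of the table nearest to the edited gene on chromosome 6, by the order of genes in the GENCODE M21 annotation, were also examined. Amn1, with 2 annotated genes between it and Resf1, was at 343, 331 and 347 normalized values in the control and 452, 443 and 437 in sg2 (log2 fold change 0.38, SE 0.11, limma adjusted p = 0.00717). Bicd1, a dynein adaptor on the other side with 4 annotated genes between, was at 419, 377 and 462 in the control and 231, 226 and 255 in sg2 (log2 fold change -0.82, SE 0.14, limma adjusted p = 1.22e-04). Amn1 was higher and Bicd1 lower, in both cases without overlap. Elsewhere on this chromosome the adjacent membrane protein genes Tmem176a and Tmem176b fell together, by 2.71 and 2.93 on the log2 scale (limma adjusted p = 2.32e-07 and 4.76e-07), a pair chosen after its values were seen.

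As a description of sequence, promoter windows of the table's genes were searched for the guanine quadruplex consensus, 4 runs of at least 3 G joined by loops of 1 to 7 bases, on both strands. The windows, from RefSeq (GRCm38.p6), span 250 bases before to 50 after a start site. The consensus was found in 27.7% of 307 windows of genes higher in sg2, in 24.9% of 269 windows of lower genes, in 31.5% of 378 windows of genes not called and in 18.6% of all 32851 windows. These shares were not tested, and transcribed sequence beyond the windows was not searched. The sets also differed in CG content, with a median of 14 CG dinucleotides per window for higher genes, 20 for lower genes, 18 for genes not called and 7 for all windows. The windows of 2 genes that changed in one direction in sg2 and in the opposite direction in the other edited lines are shown, with any consensus match in capitals: Exoc3l2 (chr7:19463037-19463336, plus strand), which has 1 such stretch, and Ephb2 (chr4:136835963-136836262, minus strand), which has 0 but holds 24 CG dinucleotides to 5 in Exoc3l2.
Exoc3l2: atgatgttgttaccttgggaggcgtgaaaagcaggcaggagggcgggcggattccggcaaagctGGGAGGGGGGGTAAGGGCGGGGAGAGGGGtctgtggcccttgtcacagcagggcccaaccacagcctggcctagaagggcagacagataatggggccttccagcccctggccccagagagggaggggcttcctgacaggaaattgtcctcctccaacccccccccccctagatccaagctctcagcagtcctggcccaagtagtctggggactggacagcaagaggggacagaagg
Ephb2: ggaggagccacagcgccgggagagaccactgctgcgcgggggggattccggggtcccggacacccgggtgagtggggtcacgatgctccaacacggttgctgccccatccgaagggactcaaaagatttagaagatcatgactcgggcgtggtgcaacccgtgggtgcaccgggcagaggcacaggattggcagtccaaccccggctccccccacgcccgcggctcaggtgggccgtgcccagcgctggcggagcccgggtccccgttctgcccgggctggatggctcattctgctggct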

How the data were processed

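RNA-seq was carried out on 12 libraries of 6DT1 cells, 3 for each of sgControl, sg1, sg2 and sg3, made with a stranded total RNA kit per the labels. The deposited values are a normalized signal per gene: estimated counts that the authors scaled by a size factor. This was inferred from the values, since 79.2% to 84.6% of those under 100 reads were whole multiples (within 0.05 reads) of the smallest step of their library. The submitters' processing notes name Partek, STAR 2.7.8a and DESeq2, and the study states normalization by median ratio in a passage on reads aligned to a human genome. The build, gene annotation and counter used for these mouse reads are not given in the sources used here. An error in a size factor would shift a whole library, and estimated counts can move reads between near-identical copies. The sequencing depth is unknown, and 3 reads were taken as the floor, which covers counting error only.

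limma 3.58.1 in R 4.3.3 was run on log2(value + 1), where the pseudocount of 1 understates changes of low genes, with an intensity trend and robust empirical Bayes estimates. All 12 libraries in 4 groups shared 1 fit with no filter, and p-values were two-sided and adjusted over the 982 genes. The script was tested on simulated data. Symbols, gene types and chromosomes came from GENCODE M21 (972 of 982 genes matched), and promoter windows from RefSeq (GRCm38.p6, 702 table genes matched).

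The members and the gene lists were chosen with earlier results of these data known. Named genes were the 12 largest rises and 12 largest falls among called genes whose libraries did not overlap and whose larger group mean was at least 50, the 5 highest and 5 lowest against the mean of sg1 and sg3 by the same criteria, and up to 4 called members of each of 20 lists with the largest size; other members of a list were named to describe it, after their values were seen. A few genes that the rule picks are not reported here. Deviations from the group means correlated between sgControl and sg2 libraries of the same replicate number (0.12, 0.16 and 0.15), although no label states what the numbers stand for. The reported fit does not pair the libraries by these numbers. They enter only in the alternative fit with the replicate number as a block, where 671 genes were called in place of 586. Alternatives were other pseudocounts, a filter, other scalings, a fit with the replicate number as a block, a test against 1.2-fold and each sgControl or sg2 library left out in turn. Added after the data were seen were a total without ENSMUSG00000119584 and removal of a trend with transcript length and GC content.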

Additional observations from a re-analysis of the deposited data

Results flagged for a closer look

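The sg2 line differed from the mean of the sg1 and sg3 lines in 521 of 982 genes (limma, adjusted p of at most 0.05), although all 3 lines carry the label Resf1 KO. From the ends of this contrast 9 genes were set aside for a closer look because the difference between edited lines passed the test itself. The log2 difference of the sg2 line was -7.87 for Kctd17, -6.31 for Ephb2, -6.06 for Mvb12b, -5.37 for Hoxb3os and -4.51 for Stc1. It was positive, at 6.51 for Exoc3l2, 5.15 for Samsn1, 3.65 for Pros1 and 2.41 for Syce2. In each of the 9 genes all 3 sg2 libraries lay outside the 6 libraries of sg1 and sg3, which the choice of genes required. For Ephb2 and Mvb12b the sg1 and sg3 lines were above the control and sg2 below it, and for Exoc3l2 and Samsn1 the sg1 and sg3 lines were below the control and sg2 above it. With 1 line per guide, guide and clone cannot be told apart in these differences.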

How the results depend on the processing

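The number of called genes moved most with the fold tested against and with the library left out, and scaling moved mainly the split into higher and lower. Against a 1.2-fold change, limma called 221 genes in sg2 against sgControl, 109 higher and 112 lower. With libraries scaled to the table total 133 were higher and 473 lower, by construction of a total in which ENSMUSG00000119584 takes a larger share in sg2. Leaving out 1 sgControl or sg2 library at a time gave 454 to 563 called genes, 245 to 286 higher and 203 to 277 lower. In the same fits 424 to 532 genes were called in sg2 against the mean of sg1 and sg3, with no sg1 or sg3 library left out. With the replicate number as a block 671 genes were called, 333 higher and 338 lower, and the block removed the call of Krt19 and of no other named gene. Of the 85 named genes, 50 kept their direction and call in every alternative that gave them a value; 12 had no value in 1 or 2 of these, below the filter or without a length and GC value. Directions reversed in 3 of these genes, each when scaled to the table total, with log2 fold changes of -0.0232 for Rbl1, -0.0490 for Tpm2 and -0.0154 for Ddx58, as follows from that scaling, which moved the median of all genes by -0.20. The depth of the libraries is unknown, and values near 3 reads, such as those of Kctd17, Mvb12b, Hoxb3os and Zfp459 in sg2, support bounds only.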
